A study of Homo sapiens with 6 samples.

Results

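CBX8 and its Polycomb chromobox paralogues CBX2, CBX6 and CBX7 were followed in A549, a widely used cell line from a human lung adenocarcinoma, with CBX8 as the target of short hairpin RNAs. The members were taken as the rows of the deposited transcript table whose RefSeq accession belongs to one of these symbols. They were 4 genes of 28452 in the table, with 1 transcript for CBX8, 2 each for CBX2 and CBX6 and 3 for CBX7, 8 in all, and none of these 8 accessions was repeated at a second locus. The libraries formed 3 groups of 2, shCBX8-1 and shCBX8-2, both labelled CBX8 knockdown, and control. All cells had been infected with lentivirus to obtain stable expression, of a CBX8 hairpin in the knockdown groups and of a control hairpin in control, and were grown in the same medium with serum. The labels do not say what the first number in the shCBX8 titles stands for, whether the lines were pools or clones, or whether libraries with the same label are separate cultures. The p-values therefore measure only the spread between these libraries, which may be technical. As these are bulk samples, fewer cells that carry a transcript and less of it per cell cannot be told apart.

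Polycomb repressive complex 1 (PRC1) places ubiquitin on histone H2A and compacts chromatin. Its canonical forms carry a chromobox subunit, whose chromodomain binds histone H3 trimethylated at lysine 27, the mark laid down by Polycomb repressive complex 2 (PRC2). CBX2, CBX6, CBX7 and CBX8 are alternative occupants of that position. CBX7 and CBX8 are known as repressors of the INK4A-ARF locus, CBX2 for chromatin compaction and its role in gonad and skeletal development, and CBX6 is the least studied of them.

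The libraries held 64197784 to 67169537 estimated counts each. The epithelial and A549 markers were all present, with summed levels of 37444 to 38662 CPM (counts scaled to a common library size) in shCBX8-1, 42796 to 47439 in shCBX8-2 and 42925 to 43393 in control. Summed leukocyte, fibroblast and endothelial markers were at most 147, 15 and 5.72 CPM in any library, with the defining markers CD3E, DCN and KDR at 0 in all 6. Of the 13 epithelial and A549 markers 2 rose and 4 fell in shCBX8-1, 3 rose and 2 fell in shCBX8-2, and 10 differed between those groups, where 2.47%, 12.7% and 9.82% of all genes tested were called. In the mean of both groups 1 rose and 4 fell, where 6.79% of all genes were called. The keratin gene KRT19 rose in shCBX8-1 (3.39 ± 0.32 log2, adjusted p = 0.00789) and was at 0.59 ± 0.31 in shCBX8-2 (adjusted p = 0.259), whereas KRT8, KRT18 and EPCAM passed as higher in shCBX8-2. KRT19 was low throughout, at 4.11 and 3.97 CPM in shCBX8-1, 0.504 and 0.652 CPM in shCBX8-2 and 0.407 and 0.359 CPM in control. KRT8 was at 11729 to 17126 CPM. The cadherin gene CDH1 fell in shCBX8-1 (-0.92 ± 0.13, adjusted p = 0.0243) and was at -0.18 ± 0.13 in shCBX8-2 (adjusted p = 0.38). ALDH3A1, a metabolic enzyme gene, fell in both, and ALDH1A1 was at 0.21 ± 0.08 in shCBX8-1 (adjusted p = 0.226) and fell in shCBX8-2 (-0.82 ± 0.08, adjusted p = 0.00299). In the mean of both groups CORO1A and CD68 of the leukocyte list rose and COL1A1 of the fibroblast list fell. CD68, a lysosomal protein, made up most of the leukocyte sum, at 121 and 117 CPM in shCBX8-1 and 96.0 and 93.5 CPM in shCBX8-2, against 80.3 and 85.2 CPM in control. Whether these shifts play a part in the results was not tested. Both genes of the INK4A-ARF-INK4B locus, CDKN2A and CDKN2B, were at 0 in all 6 libraries. Neither gene entered the tests, and why both were at 0 was not tested. The zeros are therefore not read as a response, or a lack of one, to CBX8 knockdown. The shCBX8-2 libraries carried opposite GC trends: across 16200 genes, which are not independent, each gene's deviation from its mean correlated with GC content at a Spearman value of 0.335 in replicate 1 and -0.244 in replicate 2. In the other 4 libraries it lay between -0.157 and -0.014.

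The paralogues share the code of the chromodomain, and the stretch read from coding exons 2 and 3 is shown because a hairpin against one paralogue could match another only where their bases agree. Capitals mark the bases that are the same in all 4 genes, 59 of 110. The sequences are from GENCODE release 29 on GRCh38, written in the sense of the transcript. Coordinates run over the intron between the exons, on the minus strand except for CBX2, as chr17:79796250-79796540 for CBX8, chr17:79778384-79779427 for CBX2, chr22:38871692-38871945 for CBX6 and chr22:39141371-39149832 for CBX7.
CBX8: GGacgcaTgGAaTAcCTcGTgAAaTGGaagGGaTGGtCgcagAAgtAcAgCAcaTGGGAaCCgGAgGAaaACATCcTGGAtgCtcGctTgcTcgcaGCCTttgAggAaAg
CBX2: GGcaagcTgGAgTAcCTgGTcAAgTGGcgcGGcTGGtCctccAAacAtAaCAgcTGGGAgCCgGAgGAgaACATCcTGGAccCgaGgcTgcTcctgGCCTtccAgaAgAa
CBX6: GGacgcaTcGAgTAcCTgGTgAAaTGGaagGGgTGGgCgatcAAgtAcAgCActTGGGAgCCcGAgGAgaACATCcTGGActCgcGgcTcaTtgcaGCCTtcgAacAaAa
CBX7: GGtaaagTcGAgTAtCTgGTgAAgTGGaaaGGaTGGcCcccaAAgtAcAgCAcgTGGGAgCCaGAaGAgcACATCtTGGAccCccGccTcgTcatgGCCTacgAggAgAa

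Of these 110 bases, CBX6 shared 86 with CBX8, CBX7 shared 75 and CBX2 shared 71. Over the first 180 coding bases, compared without gaps at a shift of at most 6 bases, CBX8 shared 142 with CBX6, 126 with CBX7 and 115 with CBX2. This is an identity of 63.9 to 78.9%. The same comparison gave 26.7 to 31.1% for CBX1, CBX3 and CBX5, the HP1 proteins, whose chromodomain binds histone H3 methylated at lysine 9. It does not align domains that begin at different distances from the start codon. The HP1 values therefore do not measure how alike the chromodomains are. Across whole transcripts the longest run of identical bases that CBX8 shared was 14 bases with CBX6, 13 with CBX2 and 12 with CBX7. The run shared with CBX6, gtgaaatggaaggg, lies at coding bases 88 to 101 of both genes, inside the stretch shown. No source used here gives the hairpin sequences, so no match of the hairpins themselves was searched.

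CBX8 (gene 57332, GRCh38.p14 chromosome 17, 79792132 to 79797077) was lower in every knockdown library than in either control library, and the loss was deeper in shCBX8-1. Its level was 7.79 and 7.70 CPM in shCBX8-1 and 17.7 and 13.8 CPM in shCBX8-2, against 24.6 and 26.3 CPM in control. These values rest on 508 and 508 counts in shCBX8-1, 1126 and 866 in shCBX8-2, and 1633 and 1757 in control. The groups did not overlap, and the 2 shCBX8-1 libraries were nearly equal while those of shCBX8-2 were further apart, at 69.8% and 54.1% of the control mean. In shCBX8-1 30.6% and 30.3% of the control mean remained.

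**Figure D1:**
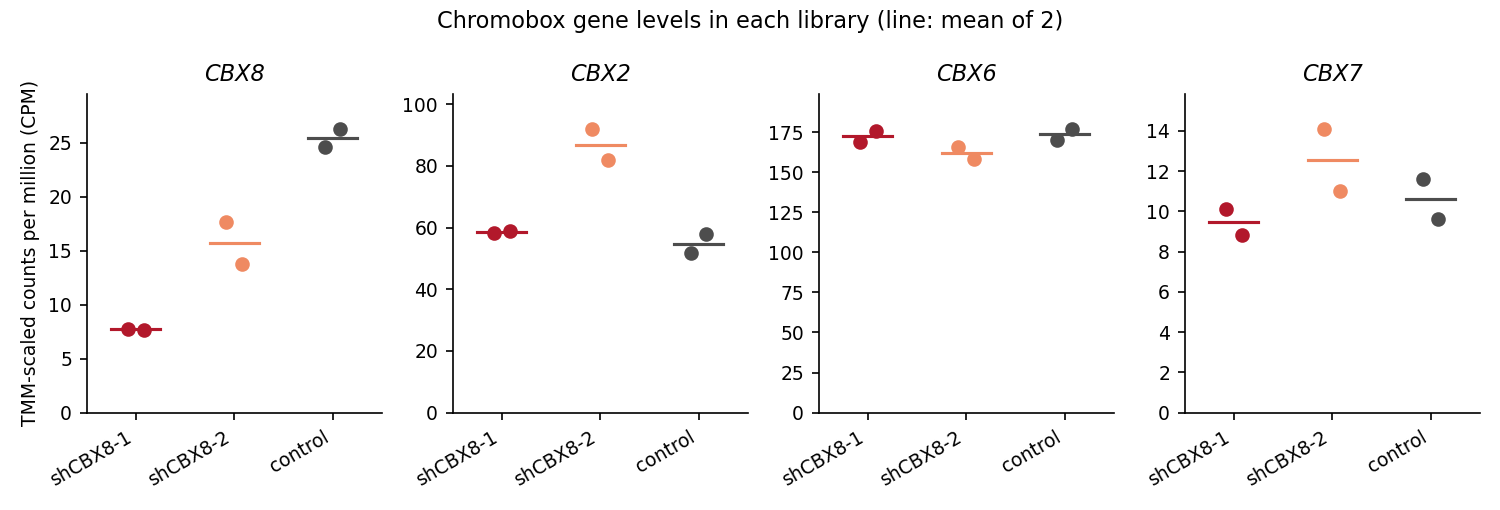
TMM-scaled CPM (vertical axis, from 0) of CBX8, CBX2, CBX6 and CBX7 in each library of shCBX8-1, shCBX8-2 and control, with a line at the mean of the 2 libraries. CBX8 lies at 7.70 to 17.7 CPM in the 4 knockdown libraries, below both control libraries, while CBX2 lies highest in shCBX8-2.

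Genes were tested with edgeR's quasi-likelihood test with Benjamini-Hochberg adjustment over the 17115 genes that passed the filter on low counts, all 4 members among them, at a threshold of 0.05. In shCBX8-1 the log2 fold change of CBX8 was -1.72 ± 0.16 against control (SE, 95% interval -2.08 to -1.35, adjusted p = 0.00708), and in shCBX8-2 it was -0.69 ± 0.15 (-1.05 to -0.33, adjusted p = 0.0297). The mean of both groups was -1.20 ± 0.13 (adjusted p = 0.00755), and the difference between the groups, shCBX8-2 minus shCBX8-1, was 1.02 ± 0.15 (0.66 to 1.39, adjusted p = 0.0115). CBX8 was not the gene with the deepest loss. Of the 194 genes that fell in shCBX8-1, 20 fell further than CBX8, and of the 1137 that fell in shCBX8-2, 790 did. The direction held without any 1 library, but the calls of CBX8 against control ended without control replicate 1 (adjusted p = 0.112 for the mean of both groups, 0.106 in shCBX8-1 and 0.125 in shCBX8-2), control replicate 2 (0.139, 0.127 and 0.17), shCBX8-1 replicate 1 (0.0641, 0.145 and 0.074) or shCBX8-1 replicate 2 (0.0669, 0.145 and 0.0749), and the call between the groups ended without either shCBX8-1 library (0.119 and 0.115). They ended also where the 4 knockdown libraries were fitted as 1 group (0.252) and, for shCBX8-2, where only the libraries compared were fitted (0.0681).

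CBX2 (gene 84733, chromosome 17, 79777311 to 79787983), whose span ends 4.15 kb before that of CBX8, was higher in shCBX8-2. It had 58.1 and 58.9 CPM in shCBX8-1 and 92.0 and 81.9 CPM in shCBX8-2, against 51.7 and 57.9 CPM in control. Both shCBX8-2 libraries stood above the other 4, whereas the shCBX8-1 values lay just above the higher control value. CBX2 rose by 0.67 ± 0.10 log2 in shCBX8-2 (0.43 to 0.90, adjusted p = 0.00906), was at 0.09 ± 0.10 in shCBX8-1 (-0.14 to 0.33, adjusted p = 0.709), and the groups differed by 0.57 ± 0.10 (0.34 to 0.81, adjusted p = 0.0182). In the mean of both groups it just passed, at 0.38 ± 0.09 (adjusted p = 0.0499). The group that kept more CBX8 was thus the one with more CBX2. With the GC trend of each library removed, CBX2 stood at 0.68 ± 0.07 (adjusted p = 0.000721) and CBX8 at -0.71 ± 0.11 (adjusted p = 0.00386) in shCBX8-2. The CBX2 call in shCBX8-2 ended without control replicate 1 (0.0827) or 2 (0.0631) and that between the groups without shCBX8-1 replicate 1 (0.15) or 2 (0.136). The call in the mean of both groups ended without either of those 4 libraries (0.281, 0.199, 0.147 and 0.15), without the filter on low counts (0.0514) and with the 4 knockdown libraries as 1 group (0.468).

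CBX6 (gene 23466, chromosome 22, 38861422 to 38872216) had the highest count of the members and passed in none of the comparisons. It stood at 169 and 176 CPM in shCBX8-1 and 166 and 158 CPM in shCBX8-2, against 170.1 and 177 CPM in control. The shCBX8-1 and control values overlapped, and both shCBX8-2 values lay below them. Its log2 fold change was -0.01 ± 0.07 in shCBX8-1 (-0.18 to 0.16, adjusted p = 0.977) and -0.10 ± 0.07 in shCBX8-2 (-0.27 to 0.07, adjusted p = 0.395). As a ratio to control, the intervals run from 0.884 to 1.12 in shCBX8-1 and from 0.829 to 1.05 in shCBX8-2.

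CBX7 (gene 23492, chromosome 22, 39130772 to 39152680), which lies 259 kb from CBX6, had the lowest count of the members in control. It had 10.1 and 8.81 CPM in shCBX8-1 and 14.1 and 11.0 CPM in shCBX8-2, against 11.6 and 9.62 CPM in control. Each knockdown group overlapped control, both shCBX8-2 values lay above both shCBX8-1 values, and the highest value was in shCBX8-2 replicate 1. The log2 fold change was -0.16 ± 0.18 in shCBX8-1 (-0.59 to 0.26, adjusted p = 0.722) and 0.24 ± 0.18 in shCBX8-2 (-0.18 to 0.66, adjusted p = 0.419), and the difference between the groups was 0.41 ± 0.18 (-0.02 to 0.83, adjusted p = 0.207). Without shCBX8-2 replicate 2 that difference was 0.57 and passed (adjusted p = 0.0368).

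In all, 1 member fell and 1 rose of 4 in the mean of both knockdown groups, where 6.79% of all genes tested were called. In shCBX8-1 1 of 4 fell and none rose, where 2.47% of all genes were called, 1.13% as lower and 1.34% as higher. In shCBX8-2 1 of 4 fell and 1 rose, where 12.7% were called, 6.64% as lower and 6.03% as higher. Between the groups 2 of 4 were higher in shCBX8-2 than in shCBX8-1, where 9.82% were called, 4.05% as higher and 5.77% as lower. CBX8 was the hairpins' target, so its own call checks the labels. The comparisons with control share the same control libraries.

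**Figure D2:**
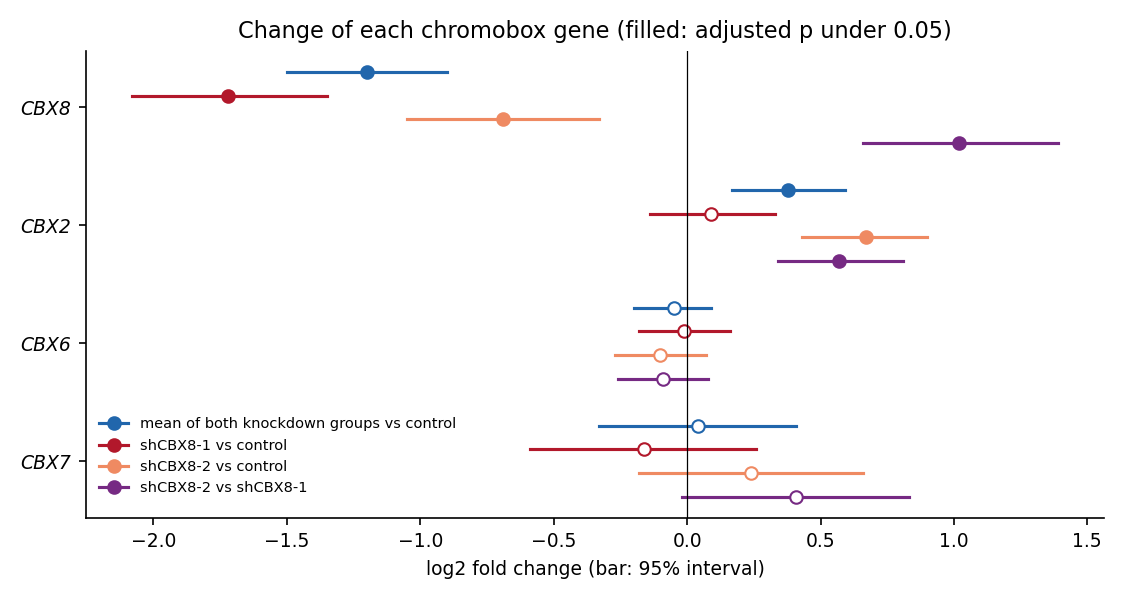
log2 fold change (horizontal axis) of each chromobox gene for the mean of both knockdown groups, shCBX8-1 and shCBX8-2 against control, and for shCBX8-2 against shCBX8-1, with bars for the 95% interval and filled points at an adjusted p under 0.05. The intervals of CBX8 lie below 0 in all 3 comparisons with control, with points at -1.72 in shCBX8-1 and -0.69 in shCBX8-2, and the intervals of CBX6 and CBX7 all include 0.

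Levels of different genes were compared per kilobase of transcript, with lengths from GENCODE for the matching RefSeq transcripts. For CBX7 the length of 1 matched transcript, 4081 bases, was used for all 3. CBX6 was the most abundant member in every library, at 33.1 ± 2.17 CPM per kb in shCBX8-1, 29.6 ± 2.19 in shCBX8-2 and 30.2 ± 1.30 in control (SD, n = 2 each), followed by CBX2 at 12.9 ± 0.325 in shCBX8-1, 19.1 ± 1.37 in shCBX8-2 and 12.3 ± 1.1 in control. CBX8 followed at 2.04 ± 0.0164 CPM per kb in shCBX8-1, 4.16 ± 0.743 in shCBX8-2 and 6.71 ± 0.305 in control, and CBX7 stood at 2.32 ± 0.227 in shCBX8-1, 3.07 ± 0.527 in shCBX8-2 and 2.60 ± 0.342 in control. CBX8 was thus above CBX7 alone in control, and well clear of it. In shCBX8-1 it was the lowest of the 4, close below CBX7 (2.05 and 2.03 against 2.48 and 2.16 CPM per kb). In shCBX8-2 it was above CBX7 in both libraries (4.68 and 3.63 against 3.45 and 2.70 CPM per kb), with ranges that did not overlap and a gap between the means smaller than the sum of the SDs.

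The summed level of the 4 genes was 50.5 ± 2.08 CPM per kb in shCBX8-1, 55.9 ± 4.82 in shCBX8-2 and 51.8 ± 2.36 in control (SD, n = 2 each). CBX8 made up 3.96 and 4.15% of that sum in shCBX8-1 and 7.89 and 6.91% in shCBX8-2, against 13.0 and 13.0% in control. CBX2 made up 24.5 and 26.9% in shCBX8-1 and 33.9 and 34.6% in shCBX8-2, against 22.9 and 24.4% in control. The ratio of CBX2 to CBX8 per length was 6.19 and 6.49 in shCBX8-1 and 4.29 and 5.00 in shCBX8-2, against 1.77 and 1.88 in control. The ratio was therefore higher in both knockdown groups, with CBX8 lower in both. CBX2 passed against control in shCBX8-2 and not in shCBX8-1. These shares are descriptions, with no test. The sum and the shares also depend on how reads were divided between transcripts of unlike length. CBX6 stood at 34.7 and 31.6 CPM per kb in shCBX8-1, against 29.3 and 31.1 in control. Its gene level, not divided by length, was 169 and 176 CPM in shCBX8-1, against 170.1 and 177 CPM in control.

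**Figure D3:**
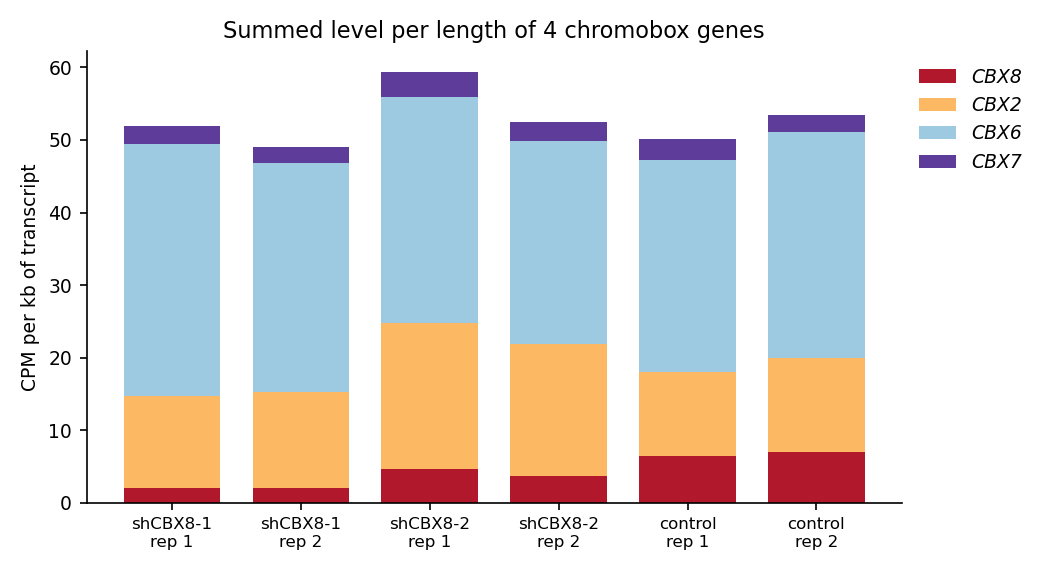
Level per kilobase of transcript (CPM per kb, vertical axis) of CBX8, CBX2, CBX6 and CBX7, stacked, in each library of shCBX8-1, shCBX8-2 and control. The CBX8 segment is 2.03 to 4.68 CPM per kb high in the knockdown libraries, against 6.49 and 6.93 in control, while CBX6 is the tallest segment in every bar.

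The transcripts of each member were then set side by side. The CBX8 count came from the 1 transcript listed, NM_020649 (3791 bases). CBX2 came almost wholly from NM_005189 (4644 bases). The shorter NM_032647 (1061 bases) held 0.446 to 1.39% of the gene's count, 19 and 45 counts in shCBX8-1, 26 and 47 in shCBX8-2, and 33 and 54 in control, and the groups overlapped.

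For CBX6 the main transcript NM_014292 (6122 bases) held 72.5 and 89.1% of the gene's count in shCBX8-1 and 83.8 and 90.6% in shCBX8-2, against 94.2 and 91.9% in control. The rest was NM_001303494 (3191 bases), at 46.7 and 19.2 CPM in shCBX8-1 and 26.9 and 14.9 CPM in shCBX8-2, against 9.83 and 14.3 CPM in control. All 4 knockdown libraries had more of it than either control library, but shCBX8-2 replicate 2 exceeded control replicate 2 by little and the shCBX8-1 libraries were far apart. Its log2 fold change was 1.44 ± 0.57 in shCBX8-1 (adjusted p = 0.767) and 0.78 ± 0.56 in shCBX8-2 (adjusted p = 0.719), with edgeR's quasi-likelihood test over 40859 transcripts.

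For CBX7 the transcript NM_001346744 had 0 counts in both control libraries and counts in all 4 knockdown libraries, with 47 and 31 in shCBX8-1 and 170 and 319 in shCBX8-2. Set against a floor of 3 counts over the control group, which covers counting error only, it was at least 26.4-fold higher in shCBX8-1 and at least 172-fold higher in shCBX8-2. It made up 7.12 and 5.34% of the CBX7 count in shCBX8-1 and 19.1 and 46.0% in shCBX8-2. It was not called by edgeR (adjusted p = 0.35 in shCBX8-1 and 0.183 in shCBX8-2), while the DESeq2 Wald test, added after seeing the data, called it in both (8.48e-05 and 1.71e-08). NM_001346743 was lower in every knockdown library, at 3.82 and 1.65 CPM in shCBX8-1 and 2.00 and 4.05 CPM in shCBX8-2, against 5.37 and 6.92 CPM in control, and did not pass (adjusted p = 0.843 and 0.69). NM_175709 varied widely within shCBX8-2, from 1.89 to 9.38 CPM, and within control, from 2.70 to 6.23 CPM. In shCBX8-1 it varied less, from 5.58 to 6.69 CPM. The CBX7 total moved much less than its transcripts did, and no source used here says how the authors' counting divided reads between transcripts that share exons. Where such reads are shared, a gain of one transcript and a loss of another cannot be told apart from a different division.

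**Figure D4:**
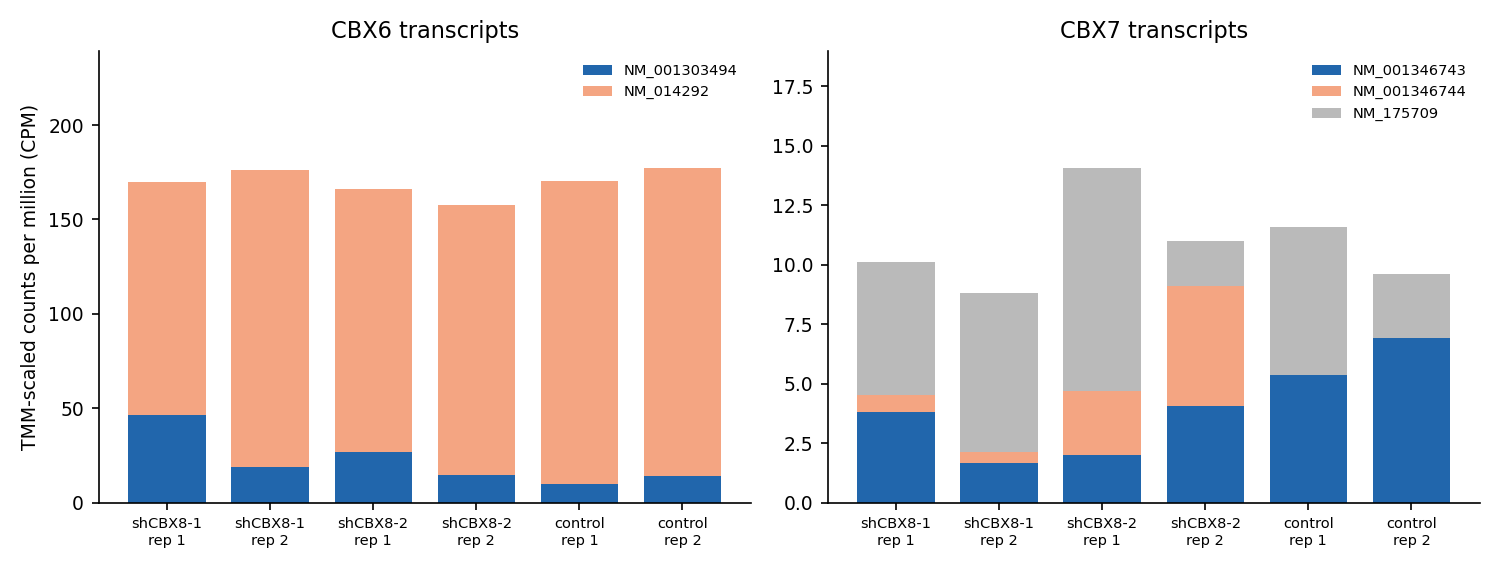
CPM (vertical axis) of the transcripts of CBX6 and CBX7, stacked, in each library of shCBX8-1, shCBX8-2 and control. NM_001346744 of CBX7 is at 0 in both control libraries and at 0.47 to 5.07 CPM in the knockdown libraries, while the total height of the CBX7 bars runs from 8.81 to 14.1 CPM.

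At the level of transcripts edgeR called 0 of 40859 in knockdown, in shCBX8-1 or in shCBX8-2 against control, a share of 0%, with 3505, 2788 and 4048 at an unadjusted p under 0.05, whereas DESeq2 called 4233, 3134 and 4487. Between the knockdown groups edgeR called 1, or 0.00245%. NM_020649, which carries the same counts as the CBX8 gene, therefore did not pass there (adjusted p = 0.26 in the mean of both groups). It passed with DESeq2 (1.39e-10).

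Further chromatin genes were taken from lists. Of the 3 HP1 genes CBX1 rose. It had 167 and 170.0 CPM in shCBX8-1 and 159 and 162 CPM in shCBX8-2, against 123 and 124 CPM in control, and the groups did not overlap. Its log2 fold change was 0.45 ± 0.07 in shCBX8-1 (adjusted p = 0.0273) and 0.38 ± 0.07 in shCBX8-2 (adjusted p = 0.0157). CBX3 and CBX5 did not pass, at 0.09 ± 0.14 and -0.06 ± 0.07 in the mean of both groups.

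Among the core subunits of PRC1, not all of which join a chromobox protein, 1 of 14 tested fell when both groups were averaged and none rose. The list median was 0.01 against -0.038 for all genes. Over all genes tested 3.48% fell and 3.31% rose in that comparison, so a count of 1 in 14 is near the background. The gene was BMI1, the PCGF subunit that partners RING1 and RNF2, at 22.6 and 16.2 CPM in shCBX8-1 and 23.1 and 29 CPM in shCBX8-2, against 57.5 and 41.0 CPM in control. Its log2 fold change was -1.35 ± 0.23 in shCBX8-1 (adjusted p = 0.038) and -0.92 ± 0.23 in shCBX8-2 (adjusted p = 0.0432). Under settings other than leaving 1 library out, BMI1 ran from -1.35 to -1.33 in shCBX8-1 and -0.93 to -0.73 in shCBX8-2. In neither group did the call hold under all of these settings. Of 22 partners of variant PRC1, the forms that carry RYBP or YAF2 and no chromobox subunit, 0 passed with edgeR in the mean of both groups (median 0.02).

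Of 13 PRC2 subunits 2 rose when both groups were averaged, and none fell (median 0.03), where 3.31% of all genes tested rose and 3.48% fell. EZH2, the methyltransferase, had 68.0 and 63.4 CPM in shCBX8-1 and 73.9 and 73.6 CPM in shCBX8-2, against 43.5 and 47.2 CPM in control. PHF19, which binds methylated lysine 36 of histone H3, had 92.0 and 95.4 CPM in shCBX8-1 and 99.2 and 86.8 CPM in shCBX8-2, against 59.8 and 60.5 CPM in control. Both rose in each group, EZH2 by 0.54 ± 0.09 and 0.70 ± 0.09 (adjusted p = 0.0345 and 0.00566) and PHF19 by 0.64 ± 0.09 and 0.63 ± 0.09 (adjusted p = 0.0255 and 0.0084). Of 12 genes of H2A deubiquitination HCFC1, a host cell factor, was the 1 that rose in the mean of both groups (0.37 ± 0.06, adjusted p = 0.0207), against the same 3.31% of all genes. It rose in shCBX8-2 (0.55 ± 0.07, adjusted p = 0.00617), was at 0.20 ± 0.07 in shCBX8-1 (adjusted p = 0.21), and differed between the groups (0.35 ± 0.07, adjusted p = 0.0293). Of 6 partners of CBX8 outside Polycomb 0 passed in the mean of both groups with edgeR. The list medians of these groups lay between 0.03 and 0.08.

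The chromosomal surroundings of the members were examined over 500 kb to either side. Of 14 genes tested near CBX8 and CBX2, 2 fell and 1 rose in the mean of both groups, with a median of -0.28, against 3.48% and 3.31% of all genes tested. In shCBX8-1 1 fell and none rose, and in shCBX8-2 2 fell and 1 rose. RBFOX3, which codes for the neuronal splicing factor NeuN and lies 127 kb from CBX8, fell to 7.45 and 7.32 CPM in shCBX8-1 and 6.05 and 4.10 CPM in shCBX8-2, against 18.8 and 24.5 CPM in control (-1.82 ± 0.18, adjusted p = 0.00678). SLC26A11, a chloride and sulphate transporter, was at -0.32 ± 0.12 in shCBX8-1 (adjusted p = 0.239) and fell in shCBX8-2 (-0.69 ± 0.12, adjusted p = 0.0155). EIF4A3, a subunit of the exon junction complex, was at 0.23 ± 0.07 in shCBX8-1 (adjusted p = 0.163) and rose in shCBX8-2 (0.33 ± 0.07, adjusted p = 0.0271). Of 36 genes tested near CBX6 and CBX7, 5 fell and none rose in the mean of both groups (median -0.15). By group, 1 fell and none rose in shCBX8-1, where 1.13% of all genes fell and 1.34% rose, and 6 fell and 2 rose in shCBX8-2, where 6.64% fell and 6.03% rose. The gene that fell in both was NPTXR, a neuronal pentraxin receptor 17.4 kb from CBX6, with -0.97 ± 0.13 in shCBX8-1 (adjusted p = 0.0242) and -0.60 ± 0.13 in shCBX8-2 (adjusted p = 0.0303). The potassium channel gene KCNJ4 was at -0.64 ± 0.40 in shCBX8-1 (adjusted p = 0.489) and fell in shCBX8-2 (-4.00 ± 0.49, adjusted p = 0.00516), and the groups differed (adjusted p = 0.0101). KCNJ4 was low in all groups, at 1.1 and 1.52 CPM in shCBX8-1, 0.173 and 0.0795 CPM (11 and 5 counts) in shCBX8-2 and 2.08 and 2.02 CPM in control. The cytidine deaminase gene APOBEC3C was at -0.16 ± 0.08 in shCBX8-1 (adjusted p = 0.361) and fell in shCBX8-2 (-0.71 ± 0.08, adjusted p = 0.00403), and the groups differed (adjusted p = 0.00976). PDGFB, a growth factor gene 70.7 kb from CBX7, was at -0.74 ± 0.24 in shCBX8-1 (adjusted p = 0.184) and fell in shCBX8-2 (-1.52 ± 0.25, adjusted p = 0.0119), with no difference called between the groups (adjusted p = 0.097).

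Genes with profiles most like those of the members were sought among 13661 genes with a mean of at least 1 CPM, by the root mean square difference in centred log2 CPM over the 6 libraries. Nearest to CBX8 were the non-coding RNA LINC00319 at 0.164, the pseudogene URAHP at 0.18, TPPP, which codes for a tubulin polymerisation protein, at 0.197, PMEPA1, a negative regulator of TGF-beta signalling, at 0.203, and MTUS1, a microtubule-associated protein, at 0.204. Their direction follows from the choice and is no finding. PMEPA1, for example, had 48.0 and 49.1 CPM in shCBX8-1 and 120.4 and 110.1 CPM in shCBX8-2, against 141 and 133 CPM in control. The set depended on the libraries, with 0 to 5 of the 5 genes remaining when 1 library was left out, 0 of them without shCBX8-1 replicate 1, 1 without shCBX8-2 replicate 1, 2 without shCBX8-1 replicate 2 and 3 without control replicate 2. Nearest to CBX2 were TLE3, a Groucho corepressor (0.0281), CDC25B, a cell cycle phosphatase (0.0358), and DVL1, a mediator of Wnt signals (0.0445). Nearest to CBX6 were RAB5C, ADGRA3 and ZMYM3 (0.0207 to 0.0288), and nearest to CBX7 were C6orf136, TFAP2C and TGFBRAP1 (0.0552 to 0.0614).

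Calls of genes outside the members were likewise mostly lost without a control or shCBX8-1 library. Leaving a library out also changes the estimate of the spread, so a lost call does not show that the change itself rests on that library. The median absolute log2 difference between the 2 libraries of a group was 0.24 in shCBX8-2, against 0.128 in shCBX8-1 and 0.129 in control. Whether this spread played a part in the lost calls was not tested. Of 19 named genes from the lists, markers and neighbours that passed in the mean of both groups, 19 no longer passed without control replicate 1, control replicate 2 or shCBX8-1 replicate 2, 18 without shCBX8-1 replicate 1, and 0 lost their call without either shCBX8-2 library. All 19 kept their direction in each of these fits. The plot of adjusted p by setting shows this for CBX8 and CBX2, whose log2 fold changes in the mean of both groups ran from -1.29 to -1.12 and from 0.30 to 0.46 with 1 library left out.

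**Figure D5:**
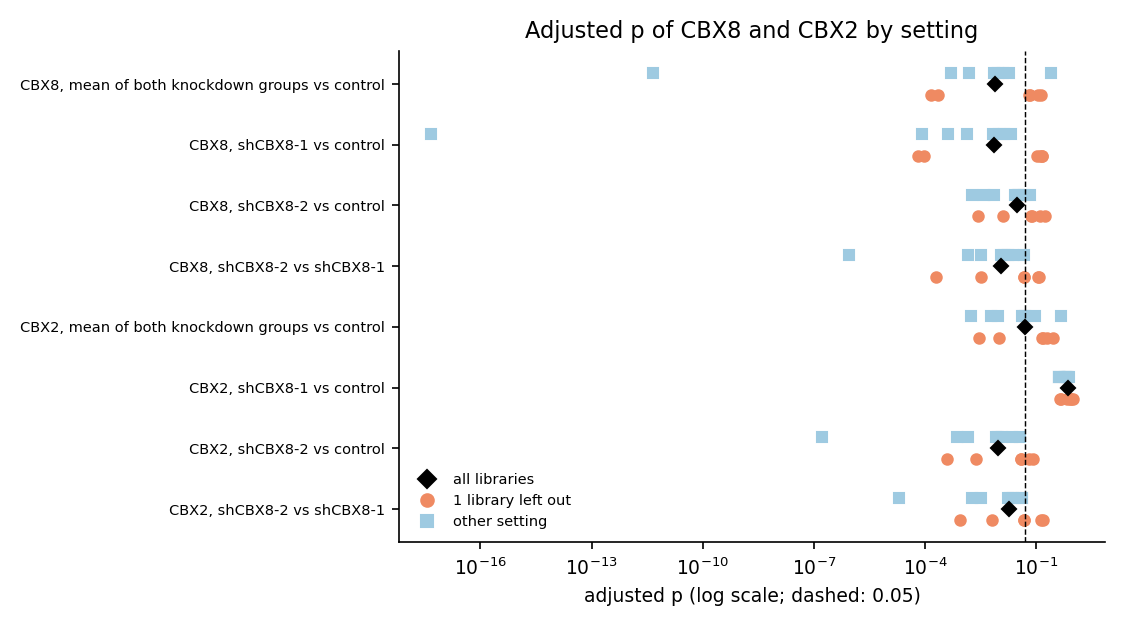
Adjusted p (horizontal log axis, with 0.05 dashed) of CBX8 and CBX2 in the 4 comparisons with all libraries, with 1 library left out and under the other settings. The values with 1 library left out fall on both sides of 0.05 for CBX8 in each comparison and for CBX2 in all but shCBX8-1 against control, where all lie above it.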

How the data were processed

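RNA sequencing counts of 6 A549 libraries were analysed. Per the labels' protocols, total RNA was taken with Trizol and libraries were made with standard Illumina protocols. The deposited values are expected counts, estimated per RefSeq transcript and not scaled. All were whole numbers already. The submitters' processing notes name HISAT2 2.2.1, StringTie 2.2.1, DESeq2 1.34.0 and build hg38. No source used here gives their roles, the annotation or the strand setting.

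Of 84787 transcripts, 83963 were matched to genes by RefSeq GRCh38.p14 and 357 by GENCODE, and 467 stayed unmatched, each counted as a separate entry. Counts were summed per gene. Total counts were 64197784 to 67169537. In R 4.3.3, edgeR 4.0.16 was used with filterByExpr (minimum count 10, minimum total 15), TMM scaling and a quasi-likelihood fit of 3 groups with 3 residual degrees of freedom. It kept 17115 genes, or 40859 transcripts fitted separately. Standard errors came from the F statistic, and tests were two-sided. The pipeline was tested on simulated data. DESeq2 1.42.0, other scaling, filters, GC correction (lowess span 0.3), the replicate block and each library left out were alternatives. The last leaves a group with 1 library, which is assumed to vary like the others.

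The members and lists were chosen with earlier results of these data known. Genes named are the members, list members, markers and neighbours within 500 kb that passed in the mean of both knockdown groups (at most 4 per list or locus, by p), and the 5 genes nearest in profile to CBX8 and 3 nearest to each other member. CBX3 and CBX5 are named beside CBX1 to complete the HP1 genes. Some genes of the lists are not reported here. KRT8, KRT18, EPCAM and ALDH1A1 were named after their values were seen.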

Additional observations from a re-analysis of the deposited data

Results flagged for a closer look

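For 2 members the knockdown groups differed by a test of the difference itself, edgeR's quasi-likelihood test of shCBX8-2 minus shCBX8-1. CBX8 was higher in shCBX8-2 by 1.02 ± 0.15 log2 (SE, adjusted p = 0.0115), with 17.7 and 13.8 CPM in shCBX8-2 against 7.79 and 7.70 CPM in shCBX8-1. CBX2 was higher there by 0.57 ± 0.10 log2 (adjusted p = 0.0182), with 92.0 and 81.9 CPM in shCBX8-2 against 58.1 and 58.9 CPM in shCBX8-1. Both shCBX8-2 libraries stood above both shCBX8-1 libraries for each gene. No group had enough libraries for a check of single outlying samples.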

How the results depend on the processing

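The 2 libraries per group set the precision, and CBX8 rested on 508 to 1757 counts per library. Of 224 values of the 4 genes under alternatives, 188 kept direction and side of the threshold, 27 lost the call, 1 gained it and 8 changed sign. The cause of each change was not tested. With 1 library left out, the log2 fold change of CBX8 ran from -1.29 to -1.12 in the mean of both knockdown groups, -1.75 to -1.65 in shCBX8-1, -0.87 to -0.52 in shCBX8-2 and 0.84 to 1.20 between the groups. That of CBX2 ran from 0.30 to 0.46 in the mean of both, 0.57 to 0.75 in shCBX8-2 and 0.50 to 0.65 between the groups. CBX7 ran from -0.09 to 0.18 in the mean of both and 0.23 to 0.57 between the groups, and CBX6 from -0.02 to 0.04 in shCBX8-1. CBX6 in shCBX8-1 also turned to 0.01 without a filter and with GC correction, alone or with the replicate block.

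Calls ended for CBX8 with the knockdown libraries as 1 group (-1.11) and in shCBX8-2 with only the libraries compared (-0.71). They ended for CBX2 in the mean of both with no filter (0.38), with the replicate block (0.38, adjusted p = 0.0902) and with 1 group (0.41). Replicate numbers did not pair the libraries (correlations of deviations -0.017 to 0.016), and the block changed no other call of the members.

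Counts of genes called moved most. Against 1162 in the mean of both they were 2312 with DESeq2, 696 with the replicate block, 2367 with the replicate block and GC correction, 2737 with GC correction, 27 with 1 group and 1 to 4467 with 1 library left out. Against 423 in shCBX8-1 they were 1408, 173, 1173 and 1523 in the same order, 2426 with only the libraries compared and 0 to 2327 with 1 library left out. Against 2169 in shCBX8-2 they were 3423 with DESeq2, 3527 with block and GC correction, 3883 with GC correction, 995 with only the libraries compared and 139 to 5515 with 1 library left out. Against 1681 between the groups they were 2831, 1082, 2881, 3220, 638 and 126 to 5104 in the order used for shCBX8-1. The shares of all genes given beside the members move with these counts.

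Transcripts and named genes that did not pass changed sign more readily with 1 library left out. CBX3 ran from -0.05 to 0.22 in the mean of both knockdown groups, -0.26 to 0.27 in shCBX8-2 and -0.43 to 0.10 between the groups, where it was also 0.03 with GC correction and 0.04 with the replicate block and GC correction. PHF19 between the groups ran from -0.10 to 0.08. NM_032647 ran from -0.67 to 0.09 in the mean of both, -1.16 to 0.06 in shCBX8-1, -0.68 to 0.20 in shCBX8-2 and -0.25 to 0.97 between the groups. NM_175709 ran from -0.39 to 1.10 in the mean of both, -0.02 to 1.18 in shCBX8-1, -1.24 to 1.06 in shCBX8-2 and -1.69 to 0.61 between the groups. Between the groups NM_001303494 ran from -1.18 to 0.10, NM_014292 from -0.17 to 0.18 and NM_001346743 from -0.46 to 0.86. Of 288 transcript values under alternatives, 11 gained a call, all with the DESeq2 Wald test added after seeing the data.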

Other observations

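Some list genes passed in one knockdown group or between the groups without passing in the mean of both, and are named here after their values were seen. MLLT3 (AF9), a reader of acylated histones known as a partner of CBX8, fell in shCBX8-2 with a log2 fold change of -0.65 ± 0.11 (adjusted p = 0.0147). It was at -0.15 ± 0.11 in shCBX8-1 (adjusted p = 0.563), and the groups differed (-0.50 ± 0.11, adjusted p = 0.041). BCORL1, a corepressor of variant PRC1, fell in shCBX8-2 (-0.63 ± 0.16, adjusted p = 0.0428) and was at -0.29 ± 0.15 in shCBX8-1 (adjusted p = 0.399), with no difference called between the groups (-0.34 ± 0.16, adjusted p = 0.223). RBBP7, a histone-binding subunit shared by PRC2 and deacetylase complexes, passed against control in neither group (-0.32 ± 0.08 in shCBX8-1 and 0.20 ± 0.08 in shCBX8-2) but differed between them (0.52 ± 0.08, adjusted p = 0.014).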
